A study of Danio rerio with 24 samples.

Results

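The serotonin neuron genes are 10 genes of serotonin synthesis, uptake, reception and neuron identity, read in whole adult zebrafish brain. They were chosen by name (tph1a, tph1b, tph2, slc6a4a, slc6a4b, fev, htr1aa, htr1ab, htr1b and htr2cl1), and all 10 were found among the 37241 genes counted. The rule uses no measured value, but the members were chosen with earlier results of these data known. An entry was taken as a member where its symbol matched the name, ignoring case, or matched it once the final paralog letter was dropped. The entries are tph2 (ENSDARG00000057239), slc6a4a (ENSDARG00000061165), slc6a4b (ENSDARG00000057017), fev (ENSDARG00000009242), htr1aa (ENSDARG00000093745), htr1ab (ENSDARG00000057098), htr1b (ENSDARG00000053987), htr2cl1 (ENSDARG00000018228) and 2 tph1 entries named where they are described. All 10 also passed the filter on low counts that left 23641 genes for testing. Brains were taken from fish of homozygous double-mutant lines and from wild-type (wt) fish, all adult and of the AB background, with 3 libraries per genotype and 24 in the series. The levels given here are those of 15 libraries, from 4 lines and wt, while the fit and the correlations across libraries used all 24. The 4 lines were made with CRISPR/Cas9 and carry a deletion in both paralogs of a neurexin, a family of presynaptic adhesion molecules. In nrxn2a_full-nrxn2b_full and nrxn3a_full-nrxn3b_full (here nrxn2 full and nrxn3 full) the deletion is described as covering the entire loci, and in nrxn2a_tmr-nrxn2b_tmr and nrxn3a_tmr-nrxn3b_tmr (nrxn2 tmr and nrxn3 tmr) the deletion covers the transmembrane region. Each genotype is a line of its own, so the deletion and other differences between lines cannot be told apart. The eyes had been removed, and the sources used here do not say whether fish were pooled.

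Serotonin is made from tryptophan in a step set by tryptophan hydroxylase, the product of the tph genes, and is then decarboxylated by aromatic amino acid decarboxylase. In vertebrate brain the tph2 form marks the neurons of the raphe nuclei in the hindbrain, whereas tph1 genes are known for the pineal gland, where serotonin is the precursor of melatonin, and in fish for serotonin cells of the hypothalamus. The serotonin transporter, encoded by slc6a4a and slc6a4b, returns serotonin to the neuron, and fev, the fish counterpart of the mouse factor Pet1, is an ETS transcription factor required for the identity of serotonin neurons. The htr1 receptors couple to inhibitory G proteins and act on serotonin neurons themselves and on their targets, and htr2cl1 is a receptor of the 2C type.

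Total counts ran from 28512102 to 38016650 per library. Counts were divided by library size factors, and all levels are these normalised read counts, which are not corrected for gene length, so levels of different genes are not compared. Nrxn3b had at most 3.91 normalised counts in nrxn3 full, against 3330 to 4180 in wt. Nrxn2a had 335 to 371 in nrxn2 full, against 3458 to 4367 in wt. The other entries kept more reads. In nrxn2 full, nrxn2b had 1809 to 2224 and a further NRXN2 entry (ENSDARG00000113112) 967 to 1294, against 6671 to 6892 and 2721 to 2969 in wt. In nrxn3 full, NRXN3 (ENSDARG00000043746) had 1296 to 1518, against 11752 to 13646 in wt. In the tmr lines the deletion covers a small piece of the gene and the gene total checks nothing. The neuronal gene ELAVL3 lay between 23176 and 33374 in each of the 15 libraries. Genes of the pineal gland stood apart: ASMT, the last enzyme of melatonin synthesis, had 25.3 to 59.4 normalised counts in 8 libraries and 970 to 1629 in the other 7, and the 8 included all 3 of nrxn2 full and none of wt. Fewer cells of a type and less RNA per cell cannot be told apart in whole brain.

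The lines were first set against wt to see whether serotonin genes differed in any of them. A single member, htr2cl1 in nrxn2 full, passed the test, out of 40 pairs of a member and a line. The p-values come from the quasi-likelihood test of edgeR with Benjamini-Hochberg adjustment across the whole table, and a difference is called under 0.05. No member was called in nrxn2 tmr, nrxn3 full or nrxn3 tmr. Over all genes tested, 9.65% were called in nrxn2 full, 8.48% in nrxn2 tmr, 8.13% in nrxn3 full and 7.32% in nrxn3 tmr, and 0 or 1 of 10 members is near that background. Without adjustment, 7 of the 40 pairs had a p under 0.05. The share of all genes at that unadjusted limit is not given, so the 7 cannot be set against a background. The 3 libraries of a line lay wholly above or below the 3 of wt in 8 of the 40 pairs, and such separation was seen for 24.4% to 28.3% of all genes tested. The median log2 fold change of the 10 members ran from -0.11 to 0.21 over the 4 lines, and that of all genes from -0.01 to 0.00. All 4 comparisons use the same 3 wt libraries.

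**Figure D1:**
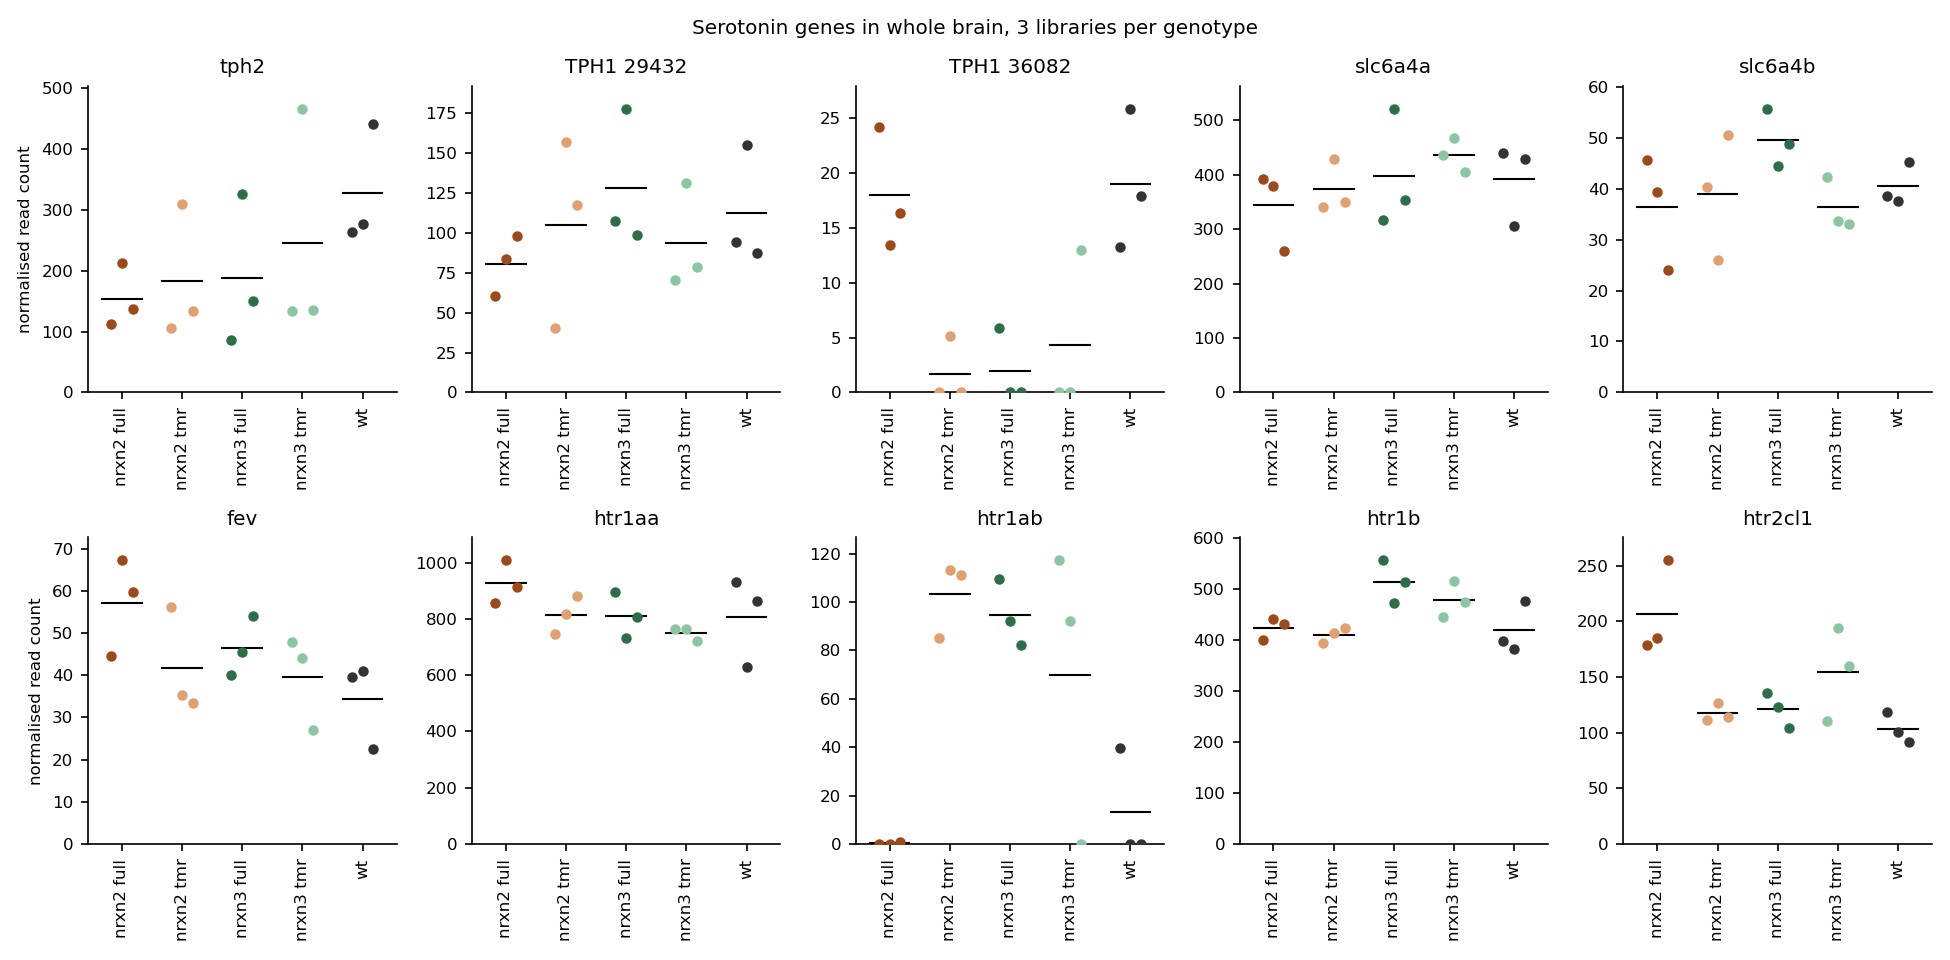
Normalised read count of the 10 serotonin genes by genotype. Points are libraries (3 per genotype), black lines are genotype means and each panel has its own vertical axis from 0; htr1ab has a single read in the 3 nrxn2 full libraries and lies between 85.3 and 113.1 in nrxn2 tmr, and htr2cl1 is highest in nrxn2 full.

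Tph2, the raphe form of tryptophan hydroxylase, was detected in every library, and its level spread widely among libraries of the same genotype. It measured 112, 213 and 137 normalised counts in nrxn2 full and 107, 310 and 134 in nrxn2 tmr. It measured 85.9, 327 and 150 in nrxn3 full and 134, 467 and 136 in nrxn3 tmr, and wt had 264, 277 and 441. Mutant libraries reached from below wt to above it, and nrxn2 full alone had all 3 libraries below all 3 of wt. The difference from wt was largest in nrxn2 full (154.1 ± 52.7 against 327.4 ± 98.6 in wt, mean ± SD, n = 3 each; log2 fold change -1.09, SE 0.67, 95% interval -2.50 to 0.32, adjusted p = 0.32). In nrxn2 tmr it was -0.83, in nrxn3 full -0.80 and in nrxn3 tmr -0.42 on the log2 scale (adjusted p = 0.52, 0.55 and 0.80). None was called, and the intervals of nrxn2 full, nrxn2 tmr, nrxn3 full and nrxn3 tmr include both no change and a level 2-fold lower than wt. Libraries of the same genotype differed by 56.5% (coefficient of variation), while counting error alone would give 6.76%, and the highest library stood 5.43-fold above the lowest. In the order of genotype means, wt, nrxn3 tmr, nrxn3 full, nrxn2 tmr and nrxn2 full, every neighbouring pair overlapped.

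The symbol table gives TPH1 for 2 entries, ENSDARG00000029432 and ENSDARG00000036082 (here the abundant TPH1 and the sparse TPH1, by their reads). These are tph1a and tph1b, and which is which was not settled from the tables used here. The abundant TPH1 had 43 to 182 reads per library. It measured 60.4, 83.6 and 98.2 normalised counts in nrxn2 full, 40.3, 157 and 117 in nrxn2 tmr, 107, 178 and 98.5 in nrxn3 full, 70.6, 131 and 78.9 in nrxn3 tmr, and 94.5, 155 and 87.4 in wt. Every line overlapped wt, and the log2 fold change lay between -0.47 in nrxn2 full and 0.19 in nrxn3 full. Libraries of the same genotype varied by 39.1% against 9.85% from counting. The sparse TPH1 had 0 to 26 reads per library and none in 6 of the 15. It averaged 17.99 ± 5.53 normalised counts in nrxn2 full and 18.97 ± 6.38 in wt. It averaged 1.73 ± 2.99 in nrxn2 tmr, 1.95 ± 3.38 in nrxn3 full and 4.33 ± 7.49 in nrxn3 tmr (SD, n = 3 each), and in these 3 lines all 3 libraries lay below all 3 of wt. None of the 3 differences passed the test (adjusted p = 0.14, 0.16 and 0.36). In nrxn3 tmr the separation was 12.98 in replicate 5 against 13.2 in wt replicate 1, with 13 reads in each.

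Both tph2 and the abundant TPH1 were lower where the pineal gene ASMT was low, in each genotype that held libraries of both kinds. In 3 genotypes (nrxn2 tmr, nrxn3 full and nrxn3 tmr) some libraries had ASMT under 100 normalised counts and others over it. In all 3, the libraries with low ASMT all had less tph2 than those with high ASMT, and the same held for the abundant TPH1 and for the transporter slc6a4a. In each of these genotypes either the low or the high kind was a single library. Of all genes tested, 3.38% were lower in all 3 in this way. Htr1aa, htr1b and htr2cl1 were lower in 2 of the 3 and htr1ab in 1, and the sparse TPH1, slc6a4b and fev in none. Over the 15 libraries, tph2 ran from 85.9 to 213 where ASMT was low and from 134 to 467 where it was high, and the abundant TPH1 from 40.3 to 107 and from 87.4 to 178. Correlations used all 24 libraries of the series, of which 10 had low ASMT and 14 high ASMT, and within neither set did one with aanat2 pass the test. Aanat2 encodes the enzyme before ASMT in melatonin synthesis, and it ran from 16.3 to 366 in the 15 libraries. For tph2, Pearson's r was -0.01 (rho -0.09) over the 10 libraries with low ASMT and 0.13 (rho 0.33) over the other 14, and for the abundant TPH1 it was -0.02 (rho -0.15) and -0.01 (rho 0.13). With Benjamini-Hochberg adjustment over these 4 relations, the smallest adjusted permutation p was 0.98 for r and 0.81 for rho. Without the 2 libraries farthest from the median of aanat2, r was 0.08 and -0.22 for tph2 and 0.15 and 0.60 for the abundant TPH1, and for deviations from genotype means it was -0.74 and 0.02 for tph2 and -0.35 and 0.08 for the abundant TPH1. A pooled r is not given, since the libraries fall into separate sets of ASMT. In the 15 libraries aanat2 ran from 16.3 to 107 where ASMT was low and from 117 to 366 where it was high. Each r thus covers part of the aanat2 range and cannot show whether either hydroxylase followed aanat2 over the whole range. All 3 nrxn2 full libraries had low ASMT and all 3 of wt high ASMT, so for these hydroxylases line and ASMT level cannot be told apart in that comparison. Among the 10 pineal markers listed, none was called in nrxn2 full, nrxn2 tmr, nrxn3 full or nrxn3 tmr against wt, and their summed level ran from 260 to 5528 in nrxn2 full and from 6162 to 16484 in wt, also without overlap. In nrxn2 tmr, where ASMT was 25.3, 1525 and 970, the sum ran from 304 to 6956 with a median of 4648. In nrxn2 full the sum reached 5528 where ASMT was at most 59.4, so the sum did not follow ASMT in every library. The part of the pineal markers in the tph2, abundant TPH1 and slc6a4a levels was not tested.

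**Figure D2:**
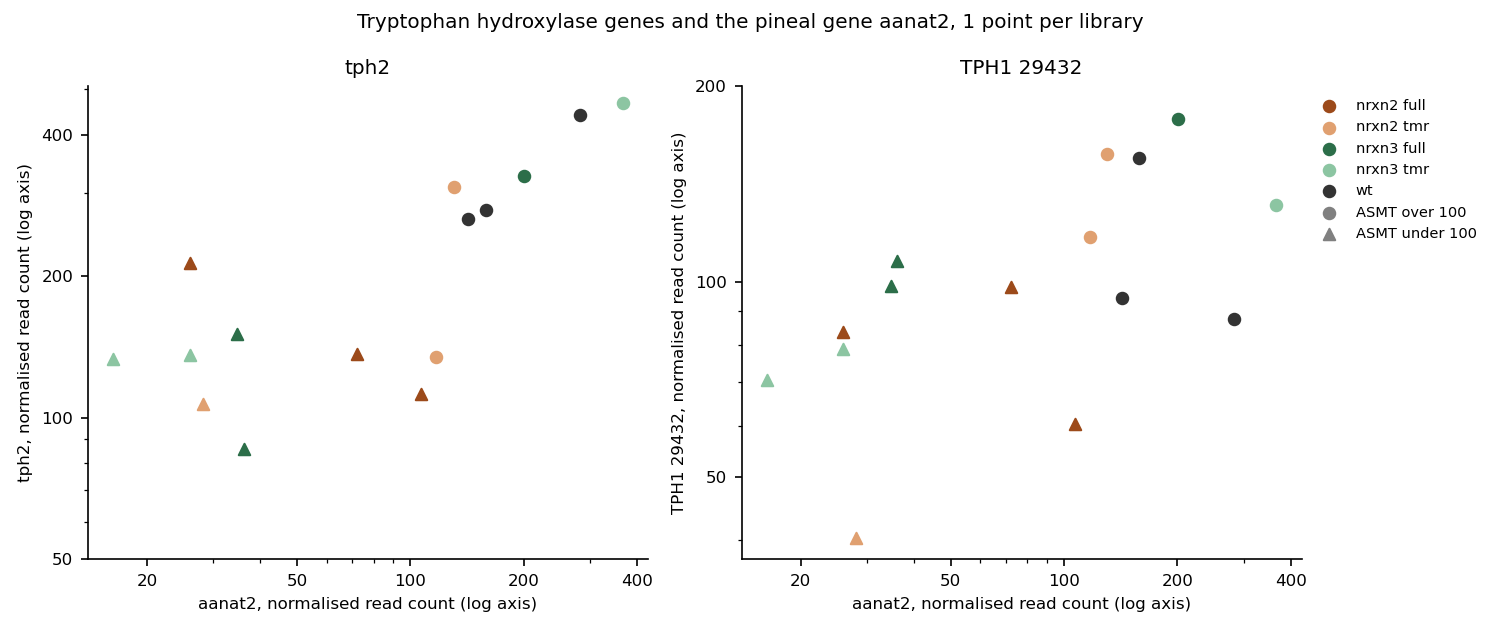
Normalised read count of tph2 (left) and the abundant TPH1 (right, titled by the end of its identifier) against aanat2, both axes logarithmic. Points are 15 libraries coloured by genotype, circles with ASMT over 100 and triangles under 100; the triangles sit at 16.3 to 107 aanat2 counts, left of the circles, at 85.9 to 213 tph2 counts and 40.3 to 107 TPH1 counts.

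The serotonin transporter genes showed no called difference. Slc6a4a, the form expressed in zebrafish raphe, ran from 260 to 521 normalised counts over the 15 libraries and varied by 18.5% among libraries of the same genotype. Its mean was highest in nrxn3 tmr (436.6 ± 31.2) and lowest in nrxn2 full (343.8 ± 73.0), against 391.4 ± 73.9 in wt (SD, n = 3 each), and each line overlapped wt. The 95% intervals of its log2 fold change reached from -0.58 in nrxn2 full to 0.55 in nrxn3 tmr. Slc6a4b had 25 to 57 reads per library and ranged from 24.1 to 55.7 normalised counts. It varied by 20.8% within genotypes, where counting error gives 15.8%. In none of the 4 lines did the libraries of slc6a4b separate from those of wt, and in nrxn3 full, at 55.7, 44.4 and 48.7, it lay above nrxn3 tmr, at 42.4, 33.6 and 32.9 (log2 fold change 0.45, SE 0.29, adjusted p = 0.51).

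Fev, the transcription factor of serotonin neuron identity, had 24 to 70 reads per library. In nrxn2 full it measured 44.6, 67.3 and 59.7 normalised counts, against 39.6, 41.1 and 22.6 in wt. All 3 nrxn2 full libraries lay above all 3 of wt, and the means were 57.2 ± 11.6 in nrxn2 full and 34.4 ± 10.3 in wt (log2 fold change 0.73, SE 0.32, 95% interval 0.05 to 1.41). The unadjusted p was 0.036 and the adjusted p 0.16, so fev was not called. In the other 3 lines fev averaged 39.6 to 46.5 and overlapped wt. In nrxn2 full, then, fev was above wt in all libraries and tph2 below wt in all libraries, and neither difference was called. Over all 24 libraries no pair of the 3 genes that mark raphe serotonin neurons had a correlation past the test. Pearson's r on log2 values was -0.32 (rho -0.34, adjusted permutation p = 0.37 and 0.33) for fev and tph2, -0.13 (rho -0.09, adjusted permutation p = 0.55 and 0.68) for fev and slc6a4a, and 0.14 (rho 0.17, adjusted permutation p = 0.55 and 0.64) for tph2 and slc6a4a, over 3 pairs. Without the 2 libraries farthest from the median of the first-named gene of each pair, r was -0.29, -0.08 and 0.45, and for deviations from genotype means it was -0.19, 0.03 and 0.41. By the likeness rule (highest r over 24 libraries, for named genes averaging 50 normalised counts or more), the genes nearest to fev were emb (0.68), MFSD4A (0.68) and kdrl (0.67), a receptor of blood vessel endothelium. Kdrl itself ran from 1428 to 1915 normalised counts, and its part in the fev level was not tested. Those nearest to tph2 were uckl1a (0.79) and POLR3B (0.73), and the third carries a clone name alone (0.71), and those nearest to slc6a4a were PIGK (0.74), si:dkey-181m9.8 (0.70) and actr2b (0.70). The 24 libraries share genotype and tissue content, and these r are given as a description.

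**Figure D3:**
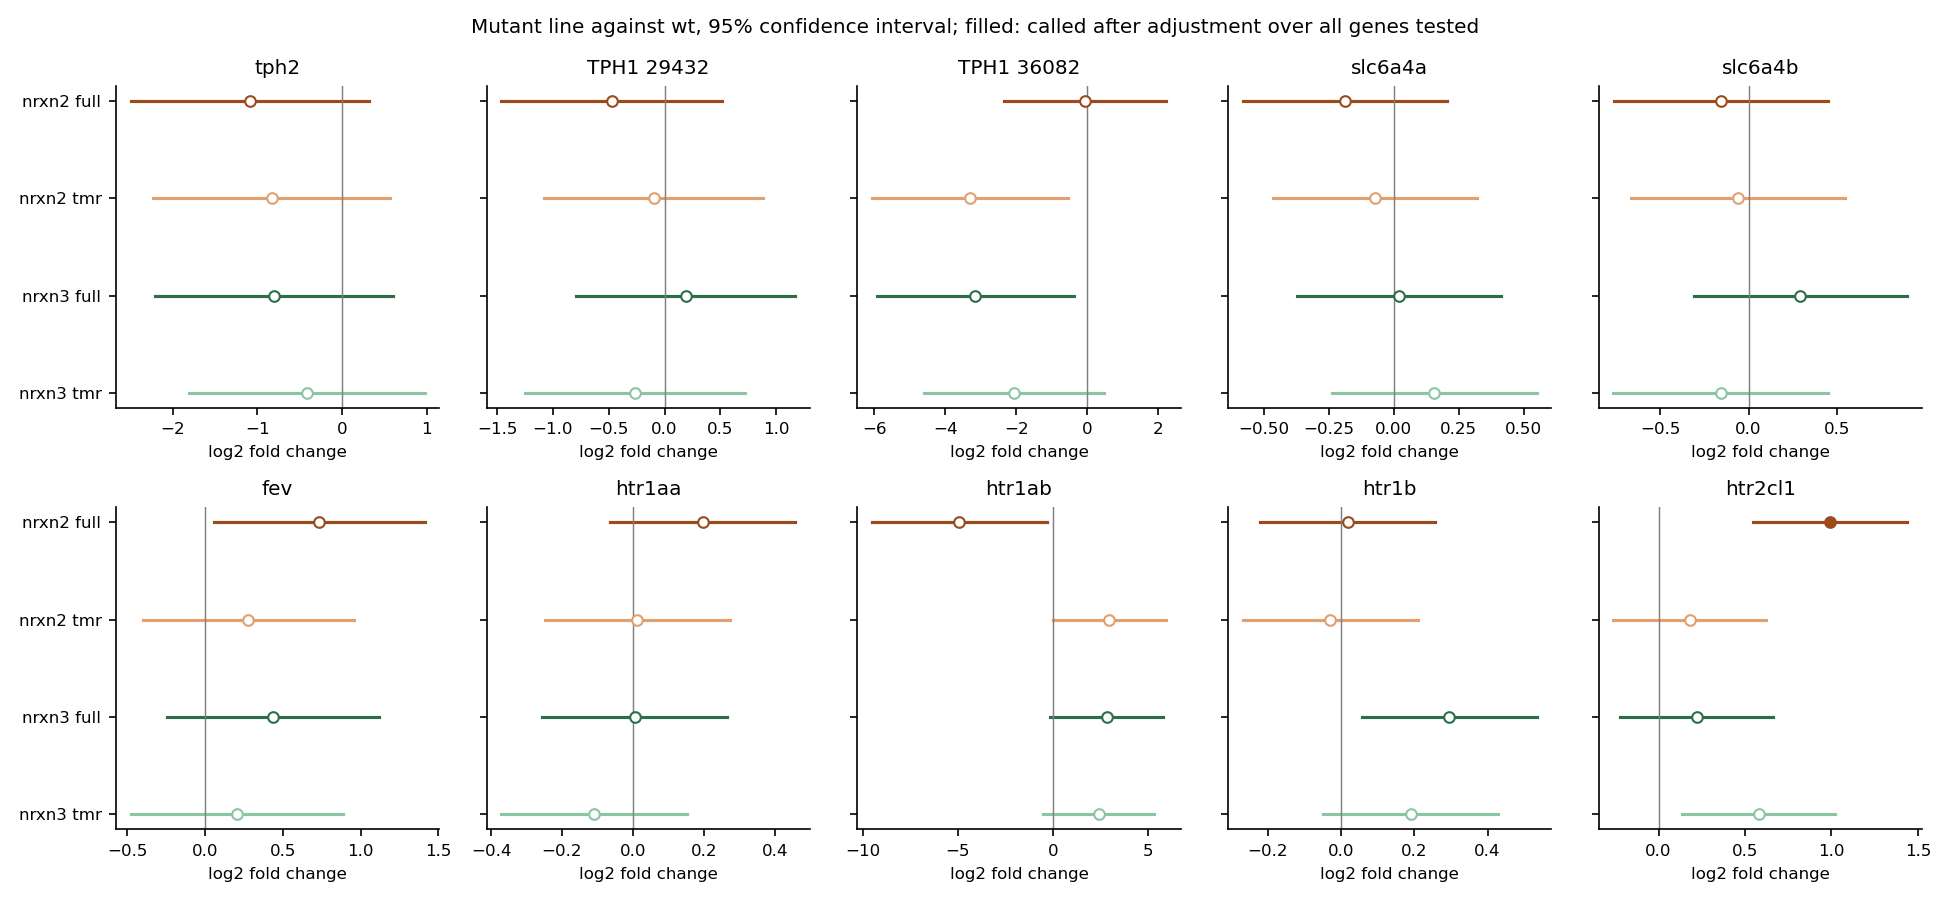
Log2 fold change of each member in each line against wt (horizontal axis, 0 marked, scale differs by panel) with its 95% confidence interval. A filled circle is a called difference, which occurs once, for htr2cl1 in nrxn2 full at 0.99; the fitted values of htr1ab rest on libraries without a read.

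Among the receptors, htr1aa and htr1b varied least. Htr1aa, a 1A autoreceptor type, ran from 629 to 1008 normalised counts, with means of 925.8 ± 76.8 in nrxn2 full and 748.9 ± 24.3 in nrxn3 tmr at the extremes and 807.7 ± 158.1 in wt. Every 95% interval of its log2 fold change against wt lay within -0.37 and 0.46. Htr1b, the 1B receptor of axon terminals, ran from 383 to 556. It measured 556, 471 and 513 in nrxn3 full, against 397, 383 and 475 in wt, which overlapped by the highest wt library alone (log2 fold change 0.30, SE 0.11, adjusted p = 0.13). These genes varied by 11.3% and 7.82% within genotypes.

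Htr2cl1 was the member called against wt. It measured 179, 185 and 255 normalised counts in nrxn2 full and 112, 127 and 114 in nrxn2 tmr. It measured 135.7, 122.995 and 103.9 in nrxn3 full and 111, 194 and 160 in nrxn3 tmr, and wt had 119, 100.9 and 91.2. The nrxn2 full libraries lay above all of wt, nrxn2 tmr and nrxn3 full, and overlapped nrxn3 tmr by its highest library. Htr2cl1 rose in nrxn2 full (206.6 ± 42.1 against 103.7 ± 14.04 in wt, SD, n = 3 each; log2 fold change 0.99, SE 0.21, 95% interval 0.55 to 1.44, adjusted p = 0.0064). The call was lost with the fit limited to the 6 libraries of nrxn2 full and wt (1.00, adjusted p = 0.076) and with wt joined to the lines that carry no nrxn2 deletion as control (0.75, adjusted p = 0.059). In nrxn2 tmr (log2 fold change 0.18, adjusted p = 0.69), nrxn3 full (0.22, adjusted p = 0.62) and nrxn3 tmr (0.58, SE 0.21, adjusted p = 0.11) the difference from wt was not called. Without nrxn3 tmr replicate 3 it was called in nrxn3 tmr (0.77, adjusted p = 0.041). The summed level of the pineal markers was also apart in nrxn2 full and wt, as given above. Of the 11 glial markers, 2 were called higher in nrxn2 full, with a median log2 fold change of 0.32, while their summed level, 456498 to 537220 in nrxn2 full and 345844 to 552580 in wt, overlapped. The part of either list in the htr2cl1 level was not tested.

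Full deletions were then compared with transmembrane deletions of the same neurexin, which leaves wt out. Htr2cl1 was higher in nrxn2 full (206.6 ± 42.1) than in nrxn2 tmr (117.5 ± 8.2; log2 fold change 0.81, SE 0.21, adjusted p = 0.019), with no overlap. This call was lost without nrxn2 full replicate 3 (0.63, adjusted p = 0.11), nrxn2 tmr replicate 1 (0.78, adjusted p = 0.066) or nrxn2 tmr replicate 3 (0.79, adjusted p = 0.06). The summed levels of some marker lists of other cell types were also apart in the same pair, where 28.9% of all genes tested did not overlap. The summed level of 11 glial markers was 456498 to 537220 in nrxn2 full and 355736 to 426778 in nrxn2 tmr, without overlap and in the direction of htr2cl1. Of the 11, 1 was called, and none was at 0 throughout. The 8 markers of blood, vessels and meninges summed to 25840 to 27936 in nrxn2 full and 11480 to 19377 in nrxn2 tmr, and the 8 of hypothalamus to 19231 to 27482 in nrxn2 full and 7693 to 15893 in nrxn2 tmr. Of the 8 in each of these lists, 0 and 1 were called higher in nrxn2 full. The other marker lists overlapped in their sums. The part of the marker lists in the htr2cl1 difference was not tested. Between nrxn3 full and nrxn3 tmr the htr2cl1 difference was -0.36 (SE 0.21, adjusted p = 0.45). Called members numbered 2 in the nrxn2 pair (htr2cl1 and htr1ab) and 0 in the nrxn3 pair, where none had an unadjusted p under 0.05, while 11.9% of all genes were called in the nrxn2 pair and 4.76% in the nrxn3 pair. The contrast of full and tmr lines itself differed between nrxn2 and nrxn3 for 2 members, htr2cl1 (1.17 on the log2 scale for nrxn2 minus nrxn3, adjusted p = 0.02) and htr1ab, against 8.22% of all genes. This contrast between pairs was added after the data were seen. The htr1ab call (adjusted p = 0.049) was lost when any 1 of 11 of the 12 libraries was left out (adjusted p = 0.063 to 0.11), and stayed only without nrxn3 tmr replicate 5. The htr2cl1 call was lost without nrxn2 full replicate 3, nrxn3 full replicate 4 or nrxn3 tmr replicate 4 (adjusted p = 0.062, 0.052 and 0.061). With the replicate number as a block both calls were lost (htr2cl1 adjusted p = 0.056, htr1ab adjusted p = 0.081), and without the filter on low counts the htr1ab call was lost (adjusted p = 0.068).

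Htr1ab, the other 1A receptor gene, was either near 0 or well counted from library to library, also within a genotype. In nrxn2 full 1 read was found over the 3 libraries, in replicate 3. Htr1ab measured 85.3, 113.1 and 111.2 normalised counts in nrxn2 tmr, 109, 92.0 and 82.3 in nrxn3 full and 117, 92.3 and 0 in nrxn3 tmr, and wt had 39.6, 0 and 0. The nrxn3 tmr and wt groups thus each held libraries of both kinds. Fitted fold changes against libraries without a read depend on the prior count and are no bound, so levels pooled over the 3 libraries are given with their counting intervals, which cover counting error only. In the nrxn2 pair the pooled level was 0.317 in nrxn2 full (1 read, 95% interval 0.00802 to 1.77) and 103 in nrxn2 tmr (332 reads, 92.5 to 115.0), a ratio of nrxn2 tmr over nrxn2 full of 326 (exact interval 58.1 to 12913). This difference was called (adjusted p = 0.022), and it was lost without nrxn2 full replicate 2 (adjusted p = 0.084) or replicate 3 (adjusted p = 0.086). Against wt none of the 4 lines was called. All 3 libraries lay above those of wt in nrxn2 tmr (adjusted p = 0.23) and nrxn3 full (adjusted p = 0.26), and without wt replicate 1, the only wt library with reads, htr1ab was called in nrxn2 tmr (adjusted p = 0.028), nrxn3 full (adjusted p = 0.031) and nrxn3 tmr (adjusted p = 0.044).

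The genes most like htr1ab over all 24 libraries were rnf180b (r = 0.99), eif4ebp1 (0.98), RGS7BP (0.98), SLC35F2 (0.98) and NEU3 (0.96), and these r were looked up after the values were seen. The libraries fall into separate sets, on which such an r rests. Eif4ebp1, an inhibitor of cap-dependent translation, shows the sets most plainly. It was at 1.17 to 6.74 normalised counts in 6 of the 15 libraries, at 481 in 1 and at 812 to 1037 in 8. Htr1ab ran from 0 to 0.962 in the 6, was at 39.6 in the 1 and ran from 82.3 to 117 in the 8. Rnf180b was at 0 in all of the 6, at 56.9 in the 1 and at 120 to 163 in the 8. The 8 were all of nrxn2 tmr and nrxn3 full and replicates 3 and 4 of nrxn3 tmr, the 1 was replicate 1 of wt, and the 6 were all of nrxn2 full, replicate 5 of nrxn3 tmr and replicates 3 and 5 of wt. In the gene order of another assembly, GRCz12tu, rnf180b is the gene next to htr1ab and eif4ebp1 lies 3 genes away. SLC35F2 lies 70 genes away, and for RGS7BP and NEU3 no distance from htr1ab was obtained. Of the 30 genes within 15 genes of htr1ab, 11 were measured, that is, matched by a unique symbol with a mean of at least 10. Levels of the rest of the 30 were not read. Of these 11 measured genes, 3 had an r over 0.7 with htr1ab, against 0.211% of all 21798 genes with such a mean. Those 3 were rnf180b, eif4ebp1 and ftsj1 (0.71). Of the other 8, sdhaf1 had an r of 0.68, c7b 0.59, c6.1 0.47, c6.2 0.42, itpkca 0.34, qpctlb 0.33 and lifrb -0.08, and ccdc61 ran the opposite way at -0.84. The median r of the window was 0.47, against 0.01 over all genes. For slc6a4a, slc6a4b, fev, htr1aa, htr1b and htr2cl1, no neighbour in such a window had an r over 0.7, and for tph2 there were 2 of 11, with a median r of 0.45 over the window, where 0.0321% of all genes had an r with tph2 over 0.7. Which strand setting the counts keep is not stated, and reads may be shared with an overlapping antisense gene or a close paralog.

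The sparse TPH1 also had libraries with and without reads. In the 6 libraries where it had no read, htr1ab measured 82.3 to 117 normalised counts, and in the 5 libraries where htr1ab had no read, the sparse TPH1 measured 12.98 to 25.8. Both had more than 1 read in nrxn2 tmr replicate 2 (sparse TPH1 5.18, htr1ab 113.1), nrxn3 full replicate 2 (5.86 and 109) and wt replicate 1 (13.2 and 39.6). The gene most like the sparse TPH1 was KCNC1 (r = 0.98), a potassium channel of fast-firing neurons, which ran from 1598 to 2200 in those 6 libraries and from 4501 to 8283 in the other 9. In the GRCz12tu gene order, mns1 (r = 0.96) is the gene next to tph1b, and it is 1 of 3 among 10 measured genes within 15 genes of tph1b with an r over 0.7, against 0.161% of all genes, while none of 10 around tph1a reached it. Neither tph1 gene lies on the chromosome of htr1ab in that order, and no distance of KCNC1 from either tph1 gene was obtained.

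**Figure D4:**
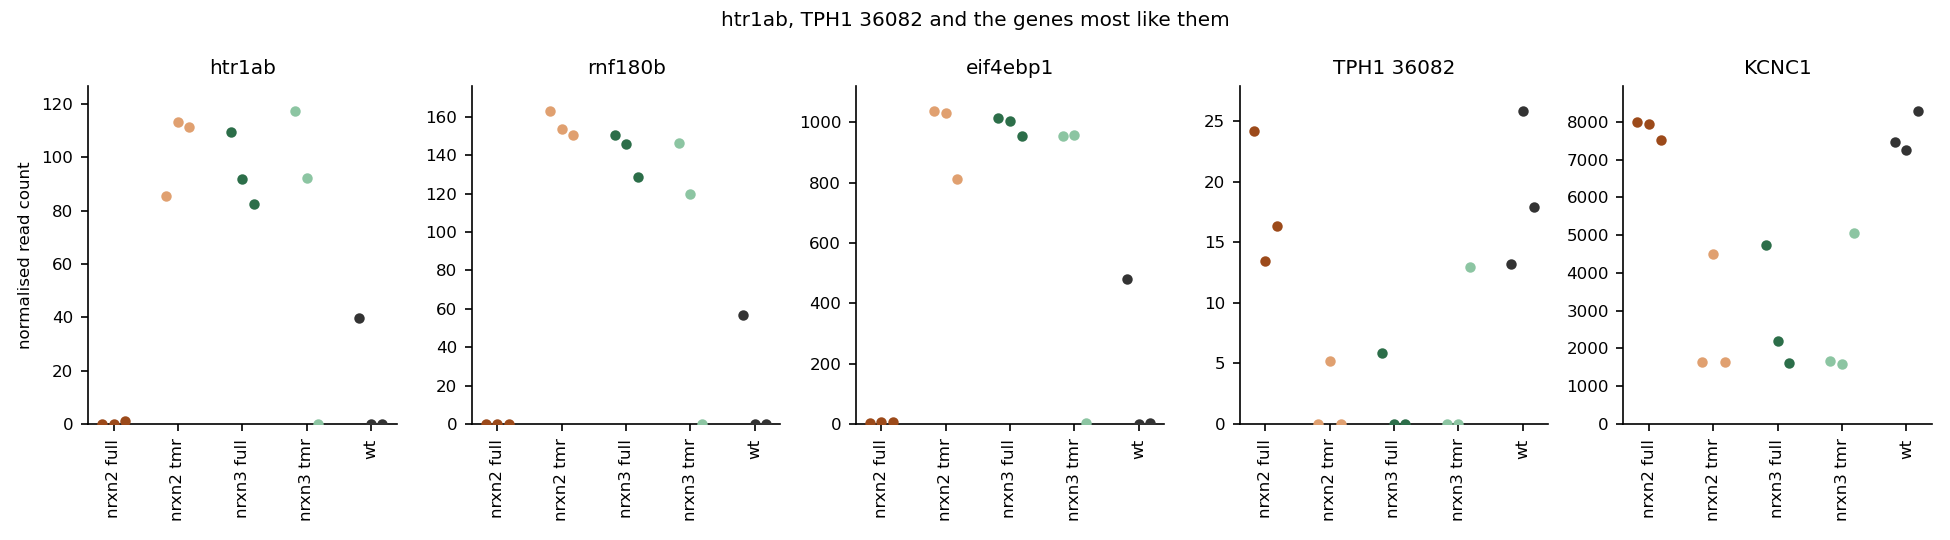
Normalised read count of htr1ab, rnf180b, eif4ebp1, the sparse TPH1 (titled by the end of its identifier) and KCNC1 by genotype, each axis from 0. Points are libraries; htr1ab, rnf180b and eif4ebp1 share the same 6 libraries at or near 0, and the sparse TPH1 is at 0 to 5.86 in nrxn2 tmr and nrxn3 full, where htr1ab is at 82.3 or more and KCNC1 at 1622 to 4738, against 7253 to 8283 KCNC1 counts in wt.

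Other genes of the serotonin pathway were read from 5 lists, which together held 58 tested genes. The alternatives of processing were not run for them. Called genes of these lists made up 3.45% in nrxn2 full (2 higher, 0 lower), 5.17% in nrxn2 tmr (0 and 3), 8.62% in nrxn3 full (2 and 3) and 8.62% in nrxn3 tmr (3 and 2), beside the shares of all genes given above. Of 13 genes of synthesis and handling, 0 to 3 fell and none rose in a line, and their median log2 fold change ran from -0.25 to -0.12. SLC18A2, the vesicular monoamine transporter that loads serotonin into vesicles, fell in nrxn3 full, where it measured 11.7, 20.7 and 21.6 normalised counts, against 94.5, 56.3 and 80.9 in wt, with no overlap (log2 fold change -2.10, SE 0.53, adjusted p = 0.019). Hypothalamic markers summed to 11824 to 13181 in nrxn3 full, against 15609 to 31711 in wt, and those of blood, vessels and meninges to 9931 to 14240 in nrxn3 full, against 21648 to 31821 in wt. Of the 8 in each list, none and 1 were called lower. The 6 markers of other monoamine neurons summed to 3832 to 4550 in nrxn3 full and 3475 to 4194 in wt, which overlapped. Of 5 tested, 1 was called lower in nrxn3 full. The part of these lists in the SLC18A2 level was not tested. Gch2, a GTP cyclohydrolase of the pathway to tetrahydrobiopterin, the cofactor of the hydroxylases, fell in nrxn2 tmr (69.6 ± 6.7), nrxn3 full (71.4 ± 8.1) and nrxn3 tmr (67.6 ± 13.1), against 132.1 ± 29.9 in wt (SD, n = 3 each), with log2 fold changes of -0.92, -0.89 and -0.97 (adjusted p = 0.0088, 0.012 and 0.0075). The 13 markers of retina, muscle and skin summed to 560 to 6437 in nrxn2 tmr, 446 to 7308 in nrxn3 full and 441 to 18396 in nrxn3 tmr, against 11314 to 50810 in wt, apart from wt in nrxn2 tmr and nrxn3 full. Of 11 tested, 1 was called lower in nrxn2 tmr, none in nrxn3 full and 1 in nrxn3 tmr, none was at 0 throughout, and their part in the gch2 level was not tested. DNAJC12, a co-chaperone of the hydroxylases, fell in nrxn3 full (475.0 ± 49.6 against 632.5 ± 53.7 in wt, log2 fold change -0.41, adjusted p = 0.0056). DNAJC12 ran from 528 to 588 in nrxn2 full, 495 to 546 in nrxn2 tmr and 528 to 539 in nrxn3 tmr. These also lay below wt (594 to 694) and were not called. In nrxn2 full gch2 ran from 83.6 to 95.3, also below wt (108 to 166), and was not called. The wt libraries are shared by these comparisons. QDPR, which regenerates tetrahydrobiopterin, has 2 entries. Of these, ENSDARG00000040190 fell in nrxn2 tmr (1229 ± 73 against 1605 ± 44 in wt, log2 fold change -0.39, adjusted p = 0.015). This entry was higher in nrxn2 full (1748 ± 52) than in nrxn2 tmr (0.51, adjusted p = 0.0023). The other QDPR entry was called in no comparison given here, and its levels are not given. SPR, sepiapterin reductase, was lower in nrxn3 full (427.2 ± 99.3) than in nrxn3 tmr (763.4 ± 144.4; log2 fold change -0.84, adjusted p = 0.007). DDC, the decarboxylase, ran from 519 to 848 over the 15 libraries.

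Of 12 further receptor genes, 0 to 1 rose and none fell in a line, beside a median log2 fold change between -0.18 and 0.15. HTR2B, a 2B receptor gene (ENSDARG00000115925), rose in nrxn3 full, where it measured 69.3, 61.0 and 56.3 normalised counts, against 4.06, 1.17 and 3.76 in wt (log2 fold change 4.29, SE 0.62, adjusted p = 0.00024). The libraries of nrxn2 full, nrxn2 tmr and nrxn3 tmr ran from 4.99 to 11.1, also above wt, and were not called. The wt level is a few reads per library, so the size of the fold change and the order of these low levels rest on few reads. HTR2B was higher in nrxn3 full than in nrxn3 tmr (2.99, adjusted p = 0.0033), and its contrast of full and tmr lines differed between nrxn2 and nrxn3 (-2.97 for nrxn2 minus nrxn3, adjusted p = 0.027). HTR2A also differed in that contrast (-0.85 for nrxn2 minus nrxn3, adjusted p = 0.023) and was called in none of the 4 lines against wt. No gene of the 4 in the melatonin branch was called in any of the 4 lines against wt by edgeR, and their median ran from -1.46 to -0.56.

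Of 17 regulators of raphe development, 1 entry of EN2, a midbrain and hindbrain homeobox gene, rose in nrxn2 full, nrxn3 full and nrxn3 tmr. Its means there were 481.8 ± 210.9, 674.9 ± 263.2 and 554.8 ± 219.5, against 7.23 ± 0.26 in wt. The log2 fold changes were 6.03, 6.52 and 6.24 (adjusted p = 0.0015, 0.00099 and 0.0013). In nrxn2 tmr this entry averaged 5.05 ± 1.40, and it was higher in nrxn2 full than there (log2 fold change 6.55, adjusted p = 0.001). That contrast differed from the one of the nrxn3 pair (6.27 for nrxn2 minus nrxn3, adjusted p = 0.0069). Single libraries ran from 3.45 to 6.07 in nrxn2 tmr, from 7.04 to 7.52 in wt and from 307 to 865 in the other lines. The low levels are a few reads per library, so the size of these fold changes rests on few reads. No other EN2 entry was called, and levels of any other are not given. GATA2, a zinc finger factor of serotonin neuron specification, rose in nrxn2 full (log2 fold change 0.33, adjusted p = 0.034) and nrxn3 tmr (0.41, adjusted p = 0.012). It ran from 851 to 927 in nrxn2 tmr and from 843 to 924 in nrxn3 full. These also lay above wt (653 to 794) and were not called. GATA3 rose in nrxn3 tmr (0.47, adjusted p = 0.043). EGR2 was called lower in nrxn3 tmr (-1.34, adjusted p = 0.044), where it ran from 79.9 to 141, against 78.0 to 445 in wt. Of the 17 regulators, 0 to 3 rose and 0 to 1 fell in a line, and their median log2 fold change ran from -0.10 to 0.13. Of 12 genes of other transmitters and carriers of raphe neurons, SLC29A4 (ENSDARG00000079873), a low-affinity monoamine carrier, was called lower in nrxn2 tmr, where it measured 163, 159 and 148 normalised counts, against 501, 548 and 160 in wt (log2 fold change -1.36, adjusted p = 0.015). The third wt library lay within the nrxn2 tmr range, so the groups overlapped. It was higher in nrxn2 full (649.5 ± 91.9) than in nrxn2 tmr (log2 fold change 2.05, adjusted p = 0.00086), and the difference of the nrxn2 pair from the nrxn3 pair was 2.15 (adjusted p = 0.0076). In the nrxn2 pair NOS1, neuronal nitric oxide synthase, was lower in nrxn2 full (1500 ± 367 against 2231 ± 89 in nrxn2 tmr, log2 fold change -0.57, adjusted p = 0.025), and SLC17A8, a vesicular glutamate transporter, was lower in nrxn3 full (8.66 ± 2.82) than in nrxn3 tmr (46.8 ± 34.4; log2 fold change -2.42, adjusted p = 0.043).

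**Figure D5:**
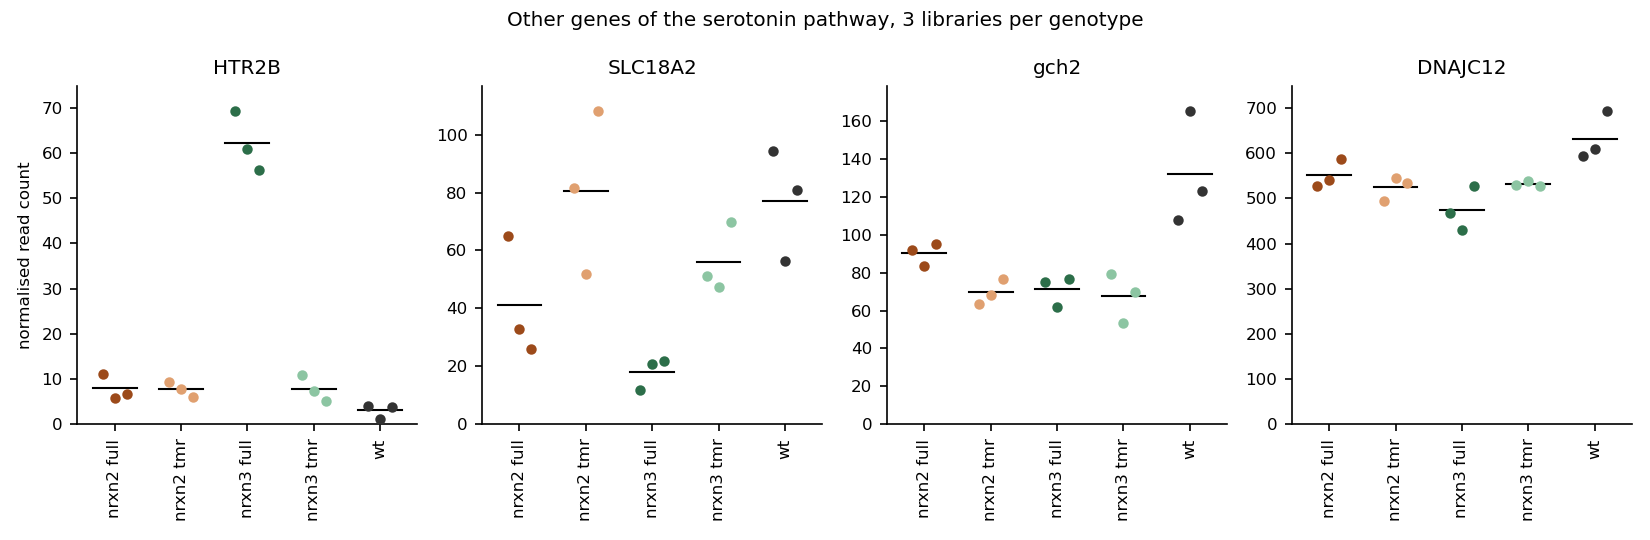
Normalised read count of HTR2B, SLC18A2, gch2 and DNAJC12 by genotype, each axis from 0. Points are libraries and black lines genotype means; HTR2B is at 56.3 to 69.3 in nrxn3 full and at 1.17 to 4.06 in wt, and SLC18A2 is lowest in nrxn3 full.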

How the data were processed

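Poly(A) RNA of 24 whole-brain libraries was sequenced by the authors, 3 per genotype, with a stranded kit. The submitters' processing notes name Trimmomatic 0.39, STAR 2.7.11b and the GRCz11 build. The values the authors deposited are raw STAR counts for 37241 genes. Gene symbols were looked up by identifier, with 29201 matched, and htr1ab and slc6a4a are the entries HTR1A and SLC6A4.

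Counts were divided by DESeq2 1.42.0 size factors. EdgeR 4.0.16 in R 4.3.3 was fitted to genes reaching 10 counts in 3 or more libraries (robust quasi-likelihood, 1 coefficient per genotype, size factors as offsets). The study's methods name DESeq2 normalisation for the neurexin genes and no test over all genes, and the test was chosen here. P-values were adjusted by Benjamini-Hochberg over all 23641 genes tested, at 0.05. The labels describe independent biological replicates. A p-value here reflects the spread between libraries of the same genotype, estimated over all 24 libraries with information shared across genes, and no other variation. The script was tested on simulated data. Correlations used log2(normalised count + 1), with 100000 permutations, two-sided, in SciPy 1.17.1. All 24 libraries entered the size factors, the fit and the correlations; levels and comparisons are given for 15 libraries of 5 genotypes, and the planned comparisons that need the others, with the planned tests among all genotypes, are not reported here. Other settings tried were the DESeq2 Wald test, TMM factors, no filter or 50 counts, fewer libraries in the fit, another control, the replicate number as a term and the omission of each library. The numbers in the labels did not pair the libraries.

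The rule for the members uses names alone, but members and lists were chosen with earlier results of these data known. Genes named are the 10 members, list genes called with the lowest adjusted p (up to 4 per comparison) or in at least 3 comparisons, and the 3 genes most like fev, tph2 and slc6a4a. SLC18A2, DDC, EGR2, ELAVL3, ASMT, aanat2, the neighbours and the genes most like other members were chosen after their values were seen. The planned comparison of sequences was not run.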

Additional observations from a re-analysis of the deposited data

Results flagged for a closer look

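The difference between full and tmr lines was itself different between nrxn2 and nrxn3 for 2 members, by a contrast of the edgeR fit. For htr2cl1 it differed by 1.17 on the log2 scale for nrxn2 minus nrxn3 (adjusted p = 0.02), and the call was lost with the replicate block (adjusted p = 0.056) and without any 1 of 3 of the 12 libraries (adjusted p = 0.052 to 0.062). For htr1ab it differed by -8.31 for nrxn2 minus nrxn3 (adjusted p = 0.049), and that call was lost with the replicate block (adjusted p = 0.081), without the filter on low counts (adjusted p = 0.068) and without any 1 of 11 of the 12 libraries. The size of the fitted htr1ab value is no measure of the change, since nrxn2 full had 1 read.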

How the results depend on the processing

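Alternatives were run for the 10 members. No called value changed direction; 58 values that were uncalled both as reported and under the alternative changed sign. The number of called members stayed at 0 in the nrxn3 pair under every alternative run. In nrxn2 full it was 2 with the DESeq2 Wald test, where htr1ab was called as well (adjusted p = 0.049), 0 with the 6 libraries alone and 0 with the wider control. Without a filter on low counts, 1 member was called for nrxn2 minus nrxn3. Leaving out each library in turn gave 0 to 1 called members in nrxn2 tmr, nrxn3 full and nrxn3 tmr, 0 to 2 in the nrxn2 pair and for nrxn2 minus nrxn3, and 1 to 1 in nrxn2 full. The causes were not tested.

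Libraries with the same replicate number did not deviate together (r from -0.12 to 0.13 over 53 pairs, other numbers from -0.15 to 0.18), so the numbers do not pair them. With the replicate block, 0 members were called for nrxn2 minus nrxn3 (htr1ab adjusted p = 0.081, htr2cl1 0.056). The block changed no other call of a member. Counting error gave 15.1% for fev, 15.8% for slc6a4b and 33.3% for the sparse TPH1, of spreads within genotypes of 24.4%, 20.8% and 60.5%, and 6.76% of 56.5% for tph2. With 3 libraries per genotype, differences within the intervals given could not be shown.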
